A study of Caenorhabditis elegans with 2 samples.

Results

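A set of 10 genes that specify early mesoderm of the MS blastomere, or the later M lineage and its nonstriated muscles, was examined for regions bound by UNC-120 in Caenorhabditis elegans embryos. The genes were ceh-51, tbx-35, hlh-8, mls-1, mls-2, fozi-1, let-381, sem-2, ceh-24 and ceh-34. They were named for their known roles, but earlier results of these data were known when they were chosen. All were found by symbol in the WBcel235 annotation, 10 of 19973 protein-coding genes. Binding was mapped by ChIP-seq, in which chromatin is precipitated with an antibody and the DNA recovered is sequenced. Worms of strain OP659, with the genotype unc-119(tm4063) III; wgIs659, made UNC-120 with GFP and FLAG at its C terminus, and the antibody recognised GFP. The 2 libraries were biological replicates 1 and 2 of 1 group of whole embryos, of mixed stage and both sexes, taken 3 h after the eggs were bleached. There was no second condition, the control experiment that the labels name was not used here, and the sources used here do not give the promoter that drives the fusion.

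UNC-120 is the worm member of the SRF family of MADS box factors and, together with HLH-1, the homologue of MyoD, drives muscle development. The MS blastomere gives rise to body wall muscle, pharynx and coelomocytes, the scavenger cells of the body cavity. Its descendant M, a single mesoblast born in the embryo, divides after hatching to make body wall muscles, coelomocytes and the sex myoblasts, which form the nonstriated muscles of vulva and uterus. In MS, the T-box factor TBX-35 activates ceh-51, which encodes an NK-2 type homeodomain protein. In M, the Twist homologue HLH-8 and the other factors set the pattern of divisions and the choice between muscle, coelomocyte and sex myoblast.

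None of the 10 genes had a UNC-120 summit at its 5′ end, and 1 of them, ceh-24, had summits within 10 kb. A summit is the position of highest signal in a region. The list of 2946 nuclear regions that passed the authors' threshold on the irreproducible discovery rate (IDR) was used for this count, and a gene was called bound when a summit lay from 1000 bp upstream to 500 bp downstream of an annotated 5′ end. By that rule 0 of 10 members were bound, against 9.27% of all protein-coding genes, and with none of 10 counted a share as high as 30% (3 counts of the total) is allowed. A summit within 10 kb of the gene was found for 1 of 10 members, with an exact binomial 95% interval of 0.253% to 44.5%, against 41.1% of all genes. No member was the nearest protein-coding gene of a summit within 10 kb, which was true of 11.6% of all genes. Each of these 3 background shares lies within the limit or interval that 10 members allow.

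Measured from the 5′ end, the members lay 4.48 to 65.2 kb from the nearest IDR summit, with a median of 29.6 kb, against a median of 15.6 kb for all genes. The nearest summit was over 10 kb away for 9 members, or 90%, against 61.8% of all genes. From nearest to farthest the order was ceh-24, ceh-34, tbx-35, hlh-8, mls-2, sem-2, let-381, mls-1, fozi-1 and ceh-51. A nearer summit than that of ceh-24 was found for 22.6% of all genes, and a nearer one than that of ceh-51 for 88.1%. The 252 kb of sequence within 10 kb of the members held 2 IDR summits, or 7.95 per Mb, against 29.4 per Mb of the genome. Both were at ceh-24, 1176 bp apart, and the other 229 kb held 0. These distances and densities describe the same 10 genes as the counts above and were not tested.

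**Figure D1:**
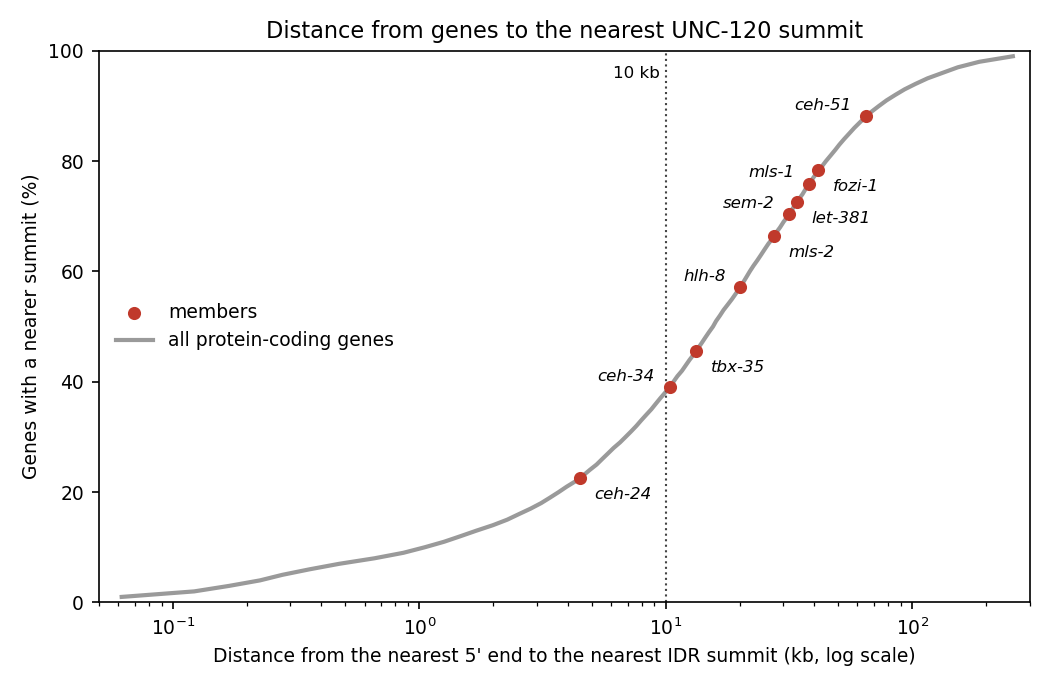
Distance from a 5′ end to the nearest IDR summit (x axis, kb, log scale) against the share of protein-coding genes with a nearer summit (y axis, %), with the members as points on the line for all genes. Only ceh-24 sits left of 10 kb, ceh-34 sits just right of it at 10.4 kb, and ceh-51 is farthest at 65.2 kb.

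ceh-24 encodes an NK-2 type homeodomain protein of nonstriated muscle, including the vulval muscles. The gene is on chromosome V from 13813231 to 13815350, on the plus strand, in ce11, the build of the files, which is the same sequence as WBcel235. Both IDR summits lay upstream of it in the 5993 bp of sequence between ceh-24 and swan-1, which is read away from it on the other strand. They are shown here because they were the only IDR summits within 10 kb of any member. Each sequence runs from 100 bases before to 100 bases after a summit, on the plus strand, and was read from the RefSeq copy of WBcel235; capitals mark the sequence CANNTG, the E-box bound by bHLH factors.
ceh-24 summit 5651 bp upstream, chrV:13807480-13807680: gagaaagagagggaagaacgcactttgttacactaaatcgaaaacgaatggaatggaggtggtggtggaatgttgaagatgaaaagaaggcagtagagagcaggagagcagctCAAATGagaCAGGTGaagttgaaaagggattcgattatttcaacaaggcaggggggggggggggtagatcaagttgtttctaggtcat
ceh-24 summit 4475 bp upstream, chrV:13808656-13808856: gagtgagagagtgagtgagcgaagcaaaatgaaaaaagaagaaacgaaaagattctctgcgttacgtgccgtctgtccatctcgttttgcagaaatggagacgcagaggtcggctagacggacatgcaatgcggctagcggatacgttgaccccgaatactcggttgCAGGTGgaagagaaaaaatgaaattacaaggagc

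The summit 4475 bp upstream, at 13808756, had the highest score of any region within 10 kb of a member. The score is the strength that the authors' peak caller gave a region, on a scale that the sources used here do not give, and ranks count nuclear regions of a list from the strongest. Its score was 411 in the list of both replicates pooled (rank 758 of 29995), 229 in replicate 1 (rank 554) and 187 in replicate 2 (rank 1078). The summit 5651 bp upstream, at 13807580, scored 262 in the pooled list (rank 1772), 155 in replicate 1 (rank 1261) and 107 in replicate 2 (rank 2790). Both stood in the top 2946 regions of each replicate, and no other member had a region that did so in either. The log2 ratio of the replicate 1 score over the replicate 2 score was 0.29 and 0.53, within the range from -0.91 to 0.59 that held the 5th to 95th percentile of 2920 IDR peaks matched in both lists. The −log10 of the q-value was 2.90 for both in the pooled list, the highest value in that list. Across the IDR list it ran only from 2.72 to 2.90.

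Both summits were nearer to another gene. The pair lay 1176 bp apart, 343 and 1519 bp from the 5′ end of swan-1, a gene for a WD repeat protein on chromosome V from 13804395 to 13807237, on the minus strand. swan-1 was called bound and ceh-24 was not. Of 5 weaker regions near ceh-24, the 1 found high in both replicates, with its summit 6006 bp downstream, lay 124 bp from the 5′ end of sel-10, a gene for an F-box protein that lowers Notch signalling.

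The E-box CACCTG, read as CAGGTG on the plus strand, was found within 100 bp of both ceh-24 summits, against 6.59% of all 2946 IDR summits. It began 22 bp from the summit at 13807580 and 67 bp from the summit at 13808756. CANNTG, which includes CACCTG, was found at both, against 61.1% of all. The CArG box, the site of the SRF family, was found at neither, against 1.46% of all. Also found at neither were CAGCTG (9.40% of all), CATATG (3.09%), GAGAGAGA (16.3%), TGATAA (10.6%), TCACACC (1.93%) and GTATACTT (0.238%). Each was searched on both strands. With 50 bp to each side CACCTG was found at 1 of the 2 summits, against 3.12% of all, and CANNTG at 1, against 40.9%. With 200 bp both were found at both summits, against 11.5% and 82.3% of all.

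**Figure D2:**
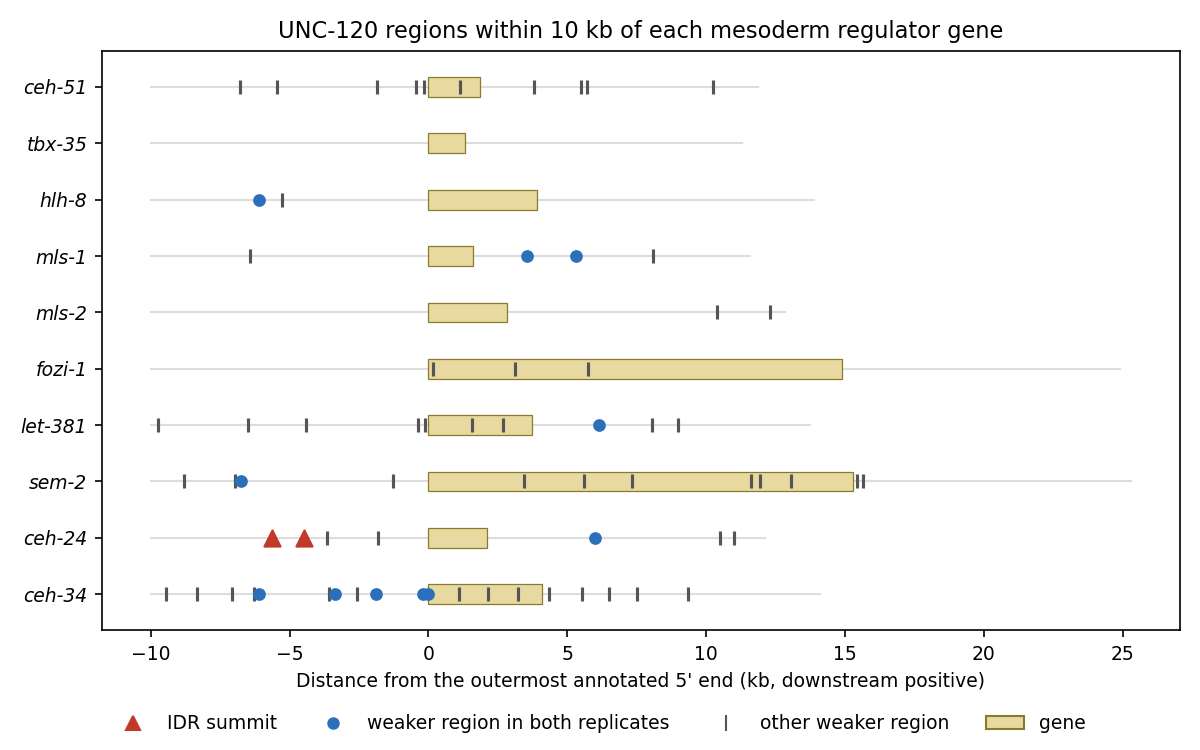
Regions within 10 kb of each member, by distance from its outermost annotated 5′ end (x axis, kb, downstream positive), with 1 row per gene: triangles are IDR summits, circles weaker regions held in both replicates, ticks other weaker regions and boxes the genes. The triangles stand only upstream of ceh-24, 5 circles lie from the 5′ end of ceh-34 to 6094 bp upstream of it, and the tbx-35 row is empty.

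Below the IDR threshold, ceh-34 had the most regions. It encodes a Sine oculis type homeodomain protein that acts in coelomocyte fate in the M lineage and in the pharyngeal nervous system. Weaker regions were taken from the pooled list, which reached down to a score of 40.1, and were called held in both replicates when the nearest summit of each replicate's list was within 200 bp and ranked among its top 10000. The gene, on chromosome V from 5315496 to 5319577 on the minus strand, had 19 weaker regions within 10 kb, of which 5 were held in both replicates. A pair of stretches is shown: the 300 bases before the 5′ end, which hold the pair of summits nearest the gene among those 5, and 100 bases to each side of the strongest summit in the sequence between ceh-34 and its neighbour. Both are on the minus strand, the strand of the gene, from RefSeq WBcel235, and capitals mark, in the first, a site of GATA factors (TGATAA, here on the other strand as TTATCA) and, in the second, the E-box CACCTG.
ceh-34 upstream of the 5′ end, chrV:5319578-5319877: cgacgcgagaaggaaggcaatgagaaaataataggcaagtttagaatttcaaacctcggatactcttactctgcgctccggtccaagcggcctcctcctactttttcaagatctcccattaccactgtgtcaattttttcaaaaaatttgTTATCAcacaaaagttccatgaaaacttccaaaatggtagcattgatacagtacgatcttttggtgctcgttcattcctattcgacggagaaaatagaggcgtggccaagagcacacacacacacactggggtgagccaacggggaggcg
ceh-34 summit 1892 bp upstream, chrV:5321369-5321569: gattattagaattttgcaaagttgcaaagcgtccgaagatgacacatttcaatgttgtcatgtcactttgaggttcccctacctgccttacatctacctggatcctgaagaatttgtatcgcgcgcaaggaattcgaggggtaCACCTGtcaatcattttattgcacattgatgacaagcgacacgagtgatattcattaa

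Of the 5 regions held in both replicates, the one nearest the gene had its summit at 5319589, 12 bp upstream of the 5′ end. Its score was 129 in the pooled list (rank 4654), 74.3 in replicate 1 (rank 3921) and 60.7 in replicate 2 (rank 6984). The next, at 5319791 and 214 bp upstream, scored 108 (rank 6070), 45.8 (rank 8943) and 51.0 (rank 9890) in the same lists, just inside the limit on ranks. The pair overlap, running from 5319367 to 5319810 and from 5319569 to 5320012, and each is counted as a region here. They were the only weaker regions held in both replicates that had a member as their nearest gene. Another 3 weaker summits lay inside ceh-34 and were not held in both; the strongest, at 5318493, scored 86.9, with rank 4169 in replicate 1 and no match in replicate 2.

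The 3 others lay farther upstream and nearer to other genes. The summit at 5321469, 1892 bp upstream, scored 151.5 (pooled rank 3775), with ranks of 4626 and 4136 in replicates 1 and 2. It was 1725 bp from the body of ceh-33, another Sine oculis type gene, although ceh-34 had the nearest 5′ end. The summit at 5322951, 3374 bp upstream, scored 135, with ranks of 5867 and 3704. It lay 243 bp beyond the 3′ end of ceh-33 and 1715 bp from the ceh-33 5′ end. The summit at 5325671, 6094 bp upstream and in an intron of C10G8.8, scored 155 and had the highest rank of the 5, at 3674, with 5683 and 3545 in the replicates. Its nearest 5′ end was that of ceh-33, 1005 bp away. The log2 ratio of the replicate 1 score over the replicate 2 score was 0.29 at the summit 12 bp upstream and from -0.16 to -0.64 at the other 4. The same ratio over all 2818 weaker regions held in both had a median of -0.22 with an SD of 0.56.

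The 5 regions span 6082 bp, and their scores of 108 to 155 stand below the lowest IDR score, 185. The nearest IDR summit to ceh-34, with a score of 312, lay 10.4 kb upstream of its 5′ end and just beyond the 10 kb limit, 1327 bp from srg-26. ceh-33, on chromosome V from 5323194 to 5324666 on the minus strand, was not bound either.

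mls-1, a T-box gene that sets uterine muscle fate among the sex myoblast descendants, had 4 weaker regions within 10 kb, of which 2 were held in both replicates. The gene is on chromosome III from 7460341 to 7461934 on the plus strand. The summit at 7465652 scored 151.1 in the pooled list (rank 3789), with 81.7 in replicate 1 (rank 3409) and 70.5 in replicate 2 (rank 5344). It lay 5311 bp downstream of the mls-1 5′ end, in a coding exon of the fumarase gene fum-1 and 47 bp from the 5′ end of fum-1. The summit at 7463886 scored 111, with ranks of 6355 and 9241, and lay in an exon of H14A12.3, 89 bp from its 5′ end. Upstream of mls-1 a single weaker region was listed, with a score of 45.6 and no match in replicate 2.

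The M lineage regulators hlh-8, mls-2, fozi-1, let-381 and sem-2 had 3 weaker regions held in both replicates within 10 kb, none of them nearest to the regulator. Near hlh-8, on chromosome X from 8116457 to 8120351 on the plus strand, the summit at 8110343 scored 109 (rank 5940), with 74.2 in replicate 1 (rank 3928) and 72.8 in replicate 2 (rank 5060). It lay 6114 bp upstream of hlh-8 and 96 bp from the 5′ end of K07E3.1. The other region near hlh-8 scored 45.7 and had no match in replicate 2.

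let-381 encodes a forkhead factor that acts upstream of ceh-34 in coelomocyte fate, and lies on chromosome I from 6320289 to 6324019 on the minus strand. Of its 10 weaker regions, 1 was held in both replicates, scoring 119.3 (rank 5215) and ranking 5768 and 7962 in replicates 1 and 2. That summit, at 6317883, was in an intron of hrpk-1, a gene for an RNA-binding protein of the hnRNP K type, 147 bp from its 5′ end. In the let-381 window at the 5′ end the highest pooled score was 48.8, at rank 23407.

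sem-2 encodes a SoxC factor needed for sex myoblast fate. The gene, on chromosome I from 5204530 to 5219815 on the minus strand with 3 annotated 5′ ends, had 12 weaker regions, 6 of them within its own exons and introns. The single region held in both replicates, at 5226568, scored 105 (rank 6309), with 59.2 in replicate 1 (rank 5550) and 56.8 in replicate 2 (rank 7952). It was intergenic, 6753 bp upstream of the nearest sem-2 5′ end and 3981 bp from C32E12.4. Another region, at 5204163 beyond the 3′ end of the gene, scored 105 as well and fell just outside the limit on ranks, with 5436 in replicate 1 and 10474 in replicate 2.

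mls-2 and fozi-1 had no weaker region held in both replicates. mls-2, an HMX family homeobox gene for cell division and fate in the M lineage, is on chromosome X from 4758804 to 4761640 on the minus strand. Its 2 weaker regions lay over 10 kb downstream of its 5′ end, with scores of 69.8 and 57.8. fozi-1, a gene for a zinc finger protein with a formin homology domain that also acts in M, is on chromosome III from 9281780 to 9296675 on the plus strand. All 3 of its pooled regions were in its own introns, with scores from 41.0 to 56.3, and none had a match in replicate 2. The best of them, 159 bp downstream of a 5′ end, ranked 18909 in the pooled list, and 18.8% of all genes had a lower best score or no region within 10 kb. The replicate lists themselves held 8 regions within 10 kb of fozi-1 in replicate 1 (best rank 9141) and 3 in replicate 2 (best rank 16853).

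Of the MS regulators, tbx-35 had no listed region nearby and ceh-51 lay farther from an IDR summit than any other member. For tbx-35, on chromosome II from 5524101 to 5525397 on the minus strand, no region of any strength was listed within 10 kb in the pooled list or in either replicate, although 10 other protein-coding genes lie in that window. Its nearest IDR summit was 13.3 kb away inside sahd-1, with a score of 187 and rank 2906, close to the end of the list. A region of some strength was listed within 10 kb of 9 of the 10 members in the pooled list, against 84.9% of all genes.

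ceh-51, on chromosome V from 18874133 to 18875982 on the plus strand, lies inside an intron of emb-4, a gene read on the minus strand for a protein of the Aquarius helicase family. It had 10 weaker regions within 10 kb, all inside emb-4, and none was held in both replicates by the rule. The strongest in the pooled list, at 18868691 and 5442 bp upstream, scored 115 (rank 5516), with rank 4523 in replicate 1 and 17396 in replicate 2. The replicate 1 list held a stronger region within 10 kb, with a score of 80.6 and rank 3468, which was the match of none of the 10 pooled regions. In the ceh-51 window at the 5′ end the best pooled region, 174 bp upstream, scored 63.5 (rank 15477). It had a match in replicate 2 at rank 16206 and none in replicate 1. Another region in that window, 440 bp upstream, scored 45.1 in the pooled list, with rank 8823 in replicate 2 and no match in replicate 1.

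Counted over all members, 6 of 10 had a weaker region held in both replicates within 10 kb (exact binomial 95% interval 26.2% to 87.8%), against 38.5% of all genes. These were hlh-8, mls-1, let-381, sem-2, ceh-24 and ceh-34. At a 5′ end the count was 1 of 10, ceh-34, against 7.28% of all genes. The interval of the first count includes the background share, and a single gene makes the second. Such regions numbered 11 of 67 weaker regions near members, or 16.4%, against 10.4% of all 27049 weaker regions. Their density was 43.7 per Mb near members and 28.1 per Mb over the genome; without ceh-34 it was 26.4 per Mb. The nearest gene was another one for 9 of the 11.

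**Figure D3:**
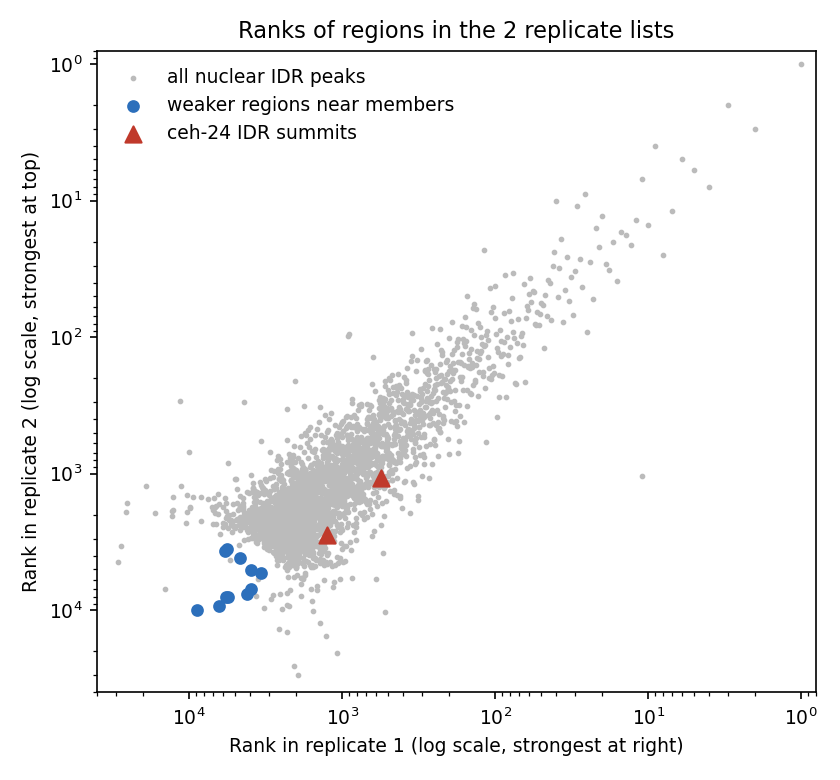
Rank in replicate 1 (x axis) and replicate 2 (y axis), both on log scales with the strongest regions at the right and top, for the ceh-24 IDR summits (triangles), the weaker regions held in both replicates near members (circles) and nuclear IDR peaks (grey points). The legend names the grey points all nuclear IDR peaks, but only the 2920 of 2946 matched in both replicate lists are drawn. The triangles lie within the grey cloud, and the 11 circles lie at its weak end, with ranks from 3409 to 9890.

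The number of weak regions around members was near that around other genes. The pooled list held a median of 5.5 regions within 10 kb of a member and 6 of a gene in general. In replicate 1 the members had a median of 7.5, from 0 at tbx-35 to 19 at ceh-34, and in replicate 2 a median of 5.5, from 0 at tbx-35 to 12 at ceh-34 and sem-2; all genes had a median of 6 in each. The best pooled score within 10 kb had a median of 112 over the members, against 140 over all genes, with a gene that had no region counted as 0. Among the 11 weaker windows near members, CANNTG was found in 5, against 59.4% of all weaker regions held in both. TGATAA was found in 3 (12.6% of all), CAGCTG in 2 (7.42%), near hlh-8 and sem-2, GAGAGAGA in 2 (9.51%), CACCTG in 1 (7.70%) and the CArG box in 0 (3.69%). The 201 bases around these 11 summits had GC contents from 29.4% near hlh-8 to 55.2% at the ceh-34 5′ end.

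Genes that act with the members were counted in the same way. Of 58 genes in 5 lists of partners and relatives, 15 were bound (25.9%, against 9.27% of all genes) and 38 had a summit within 10 kb (65.5%, against 41.1%). The same shares of all genes are the background of each list below. The rule takes every annotated 5′ end, so a gene with more of them has more windows. The summits reported below for lit-1, sma-9, unc-62, lin-39, egl-17 and soc-2 lay inside the gene. The lists were drawn up from known roles, and earlier results of these data were known when they were. Among inputs to MS specification, 3 of 10 were bound and 8 had a summit within 10 kb. They were lit-1, a kinase of the Wnt pathway, with a score of 1053 and rank 35, mex-1, a maternal zinc finger gene, with 550 at a summit nearer to another gene, and sys-1, a beta-catenin gene, with 229. The GATA factor genes med-1 and med-2, which activate tbx-35, were not bound.

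Among MS fate genes and other mesoderm factors, 3 of 10 were bound. hlh-1 scored 1300 (ranks 10 and 15 in replicates 1 and 2), unc-120 scored 453 (ranks 921 and 98) and the T-box gene tbx-2 scored 194. The worms carry a unc-120 transgene, and whether its DNA adds signal at unc-120 was not tested. The homeobox gene ceh-22 and the Notch receptor gene glp-1 were not bound.

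The list of M lineage patterning genes and cofactors had 6 of 14 bound. The strongest was sma-9, a Schnurri type zinc finger gene for dorsoventral pattern in M, at 861, ranked 93 and 89 in the replicates. The homeobox genes unc-62 (469), ceh-20 (418) and the Hox gene lin-39 (277) followed, and mab-5 and sys-1 were the others. eya-1, whose product is a partner of Sine oculis type proteins, and hlh-2, whose product pairs with HLH-8, were not bound, and the nearest IDR summit to hlh-2 was 30.8 kb from its 5′ end. The sex myoblast and nonstriated muscle effectors had 4 of 10 bound and 9 of 10 with a summit within 10 kb. egl-17, the gene for the fibroblast growth factor that guides the sex myoblasts, scored 555 with a summit 128 bp downstream of its 5′ end. Signalling genes of the same pathway followed, soc-2 with 479, clr-1 with 231 and sem-5 with 227. The receptor gene egl-15 was not bound, although 2 summits lay within 10 kb of its gene body, the nearest 14.7 kb from its 5′ end. arg-1, a Notch ligand gene activated by HLH-8, was not bound and had its nearest summit 51.0 kb from its 5′ end.

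Of 16 relatives of the members by protein family, 0 were bound, which allows up to 18.75%, and 6 had a summit within 10 kb (37.5%). The first unbound ones by name were ceh-1 and ceh-27. The median distance from a 5′ end to the nearest IDR summit was 29.6 kb for the members, 13.4 kb for the relatives, 7.40 kb for the MS fate list, 3.42 kb for the M lineage cofactors, 2.45 kb for the MS inputs and 1.41 kb for the effectors. These are descriptions of short lists that share 2 genes, and no test was made between them.

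**Figure D4:**
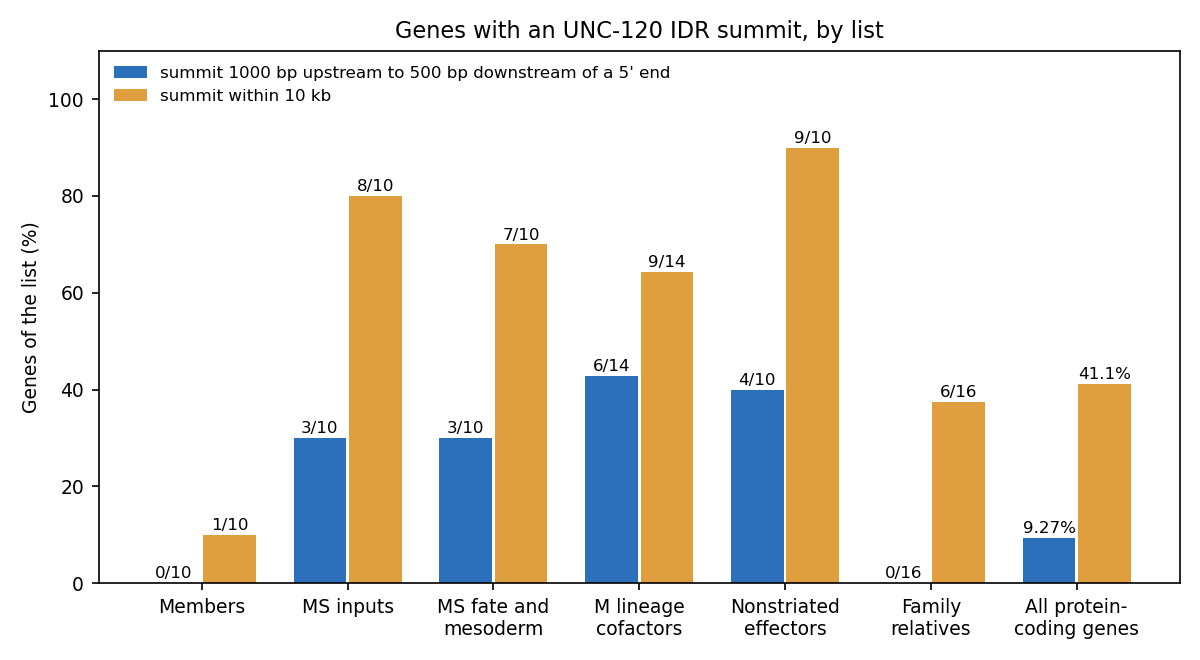
Share of genes (y axis, %) with an IDR summit in the window at a 5′ end (blue) and within 10 kb (orange), for the members, 5 lists of related genes and all protein-coding genes, with counts above the bars. The members have 0 of 10 and 1 of 10, against 9.27% and 41.1% of all genes, and the relatives are the other list with no blue bar.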

How the data were processed

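The files listed regions in narrowPeak format, in builds ce10 and ce11; the listing that the authors deposited beside them names each. The ce11 lists were used: a ranked list for each replicate, 1 for both replicates pooled (30000 regions each), and the optimal IDR list (2951 regions, of which 5 mitochondrial ones were set aside). Column 7 holds the score that the authors' peak caller gave each region. Column 9, as the deposited format defines it, is the −log10 of a q-value. The aligner, peak caller and versions: not given in the sources used here. Read counts are in none of the lists, so depth is unknown, and the exact binomial intervals and the limits on counts of 0 cover the counting of genes only. Separate cultures are not stated beyond the label of biological replicate.

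Summits were set against protein-coding genes of Ensembl release 115 on WBcel235, with coordinates counted from 1. Weaker regions were pooled regions below the lowest IDR score. A pooled region took its replicate values from the nearest replicate summit within 200 bp. The text names all members, the nearest gene of each summit near a member and, from each list of related genes, the bound genes with the highest scores (at most 4) and the unbound genes first in name order (at most 2). mab-5, ceh-33 and hosts of distant summits were picked with their values known. The members and lists were chosen with earlier results of these data known. No test was made: there is 1 group, and members are described by counts beside all genes. The alternatives changed the peaks, windows, matching distance, rank limit and replicate used. The functions were tested on simulated summits. Tables were handled in Python 3.11.15 with pandas 2.3.3 and numpy 2.4.6, intervals came from scipy 1.17.1 and plots from matplotlib 3.10.9.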

Additional observations from a re-analysis of the deposited data

How the results depend on the processing

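Of 68 values recomputed under alternatives, 52 stayed within 1.5 times the reported value and 16 moved further. No member was bound under any of the 7 alternatives to peaks, windows or replicates. That 0 could not change with the highest-scoring peaks, 1 summit per 400 bp, or 500 bp upstream to 100 bp downstream, which only remove summits or sequence. It was also fixed for 3000 bp upstream to the end of the gene and for the nearest 5′ end within 2000 bp. The only IDR summits within 10 kb of a member lay 4475 and 5651 bp upstream of ceh-24, beyond the reach of both rules. Only the use of 1 replicate alone could have changed the count of bound members. Summits nearest to a member were likewise fixed at 0 with fewer peaks or shorter flanks. Part of the 52 was thus fixed in advance. With the 1473 highest-scoring peaks, 972 of all genes were bound (1852 in the report), 5049 had a summit within 10 kb (8207) and 1 summit lay near the members (2). Counting from 3000 bp upstream to the end of the gene gave 3153 bound genes, and 2825 genes with a weaker region there (1454). Counting to 5 kb left 1 summit near members, and counting to 2 kb left 0 summits, 0 members and 3534 of all genes. With both replicate ranks within 6000, 0 members had a weaker region at a 5′ end (1), 699 genes did, and 3 members had one within 10 kb (6): hlh-8, mls-1 and ceh-34. With matching within 100 bp the members were 4: mls-1, let-381, ceh-24 and ceh-34. These changes follow from fewer peaks, other windows or stricter limits. Using the 2946 top regions of 1 replicate alone, members bound stayed at 0, members with a summit within 10 kb at 1 and their summits at 2, with 1806 to 1850 of all genes bound and 8069 to 8273 within 10 kb. No paired analysis was possible because only 1 group was studied. The unknown depth bears on every statement about regions below the lists' lowest scores, so a gene with no listed region, such as tbx-35, is not shown to lack binding.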

Other observations

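The gene families that share a name with members were counted beside the 9.27% of all genes that were bound. The counts of bound genes are small, and no interval was made for them. Of 63 genes named ceh, 7 were bound (11.1%), with ceh-38, ceh-13 and ceh-20 strongest, and 30 had a summit within 10 kb (47.6%, against 41.1% of all genes). Of 25 genes named hlh, 3 were bound (12%), namely hlh-1, hlh-11 and hlh-30, and 14 had a summit within 10 kb (56%). Of 19 genes named tbx, 1 was bound (5.26%), tbx-2, and 3 had a summit within 10 kb (15.8%, against 41.1% of all genes). Among 6 Hox genes, ceh-13, lin-39 and mab-5 were bound. These counts were made after the values were seen and were not tested.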
